A study of Homo sapiens with 12 samples.

Results

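The proteasome genes were taken as all genes of the count table whose symbol is PSMA, PSMB, PSMC, PSMD, PSME, PSMF or PSMG followed by a number, leaving out those described as pseudogenes. This gave 48 of the 50868 genes: 8 genes of the outer ring of the 20S core (PSMA), 7 of its inner ring (PSMB), 4 immunoproteasome or thymoproteasome subunits, 6 ATPases and 11 other subunits of the 19S cap, 5 activators or inhibitors and 7 assembly chaperones. Of these, 46 had enough reads to be tested. PSMA8, an outer-ring subunit known from the testis, and PSMB11, a catalytic subunit known from the thymus, had 0 reads in all 12 libraries, which allows up to 0.137 to 0.177 CPM (3 counts of a library's total, counting error only). CPM is the count scaled to the library's effective size.

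The proteasome is the protease that degrades proteins tagged with ubiquitin. Its 20S core is a barrel in which outer alpha rings form a gated entrance and inner beta rings hold the active sites, and its 19S cap binds the tagged protein, removes the ubiquitin, unfolds the chain with a ring of ATPases and feeds it through the gate. In epithelial cells interferon brings in the immunoproteasome subunits, which replace the constitutive catalytic subunits and change the peptides made for presentation to T cells.

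RNA was sequenced from RPMI2650, a human epithelial line derived from a nasal septum tumour, kept here at an air-liquid interface. There were 4 libraries after 7 days with 1 µM PFHxA (perfluorohexanoic acid), 4 after 7 days with 1 µM PFBA (perfluorobutanoic acid) and 4 of control cells, whose labels give neither a day nor a vehicle. The genotype is given as wild type in all 3 groups, and both compounds are perfluoroalkyl carboxylic acids, of which PFHxA has the longer chain. All cells are of 1 line, and no label tells if a group's libraries come from separate cultures, so that p-values measure the spread between these libraries, which may be technical. Libraries held 16941599 to 21879105 counts, and the proteasome genes took 0.402% to 0.468% of them, with 102 to 4586 counts per tested gene and library. Of the 9 epithelial markers, some were high, with control means of 1920.6 CPM for KRT5, 357.9 for KRT19, 322.6 for KRT8, 110.9 for KRT18 and 43.3 for EPCAM. The others were low, at 8.46 CPM for CDH1, 1.9 for TP63, 1.57 for CLDN4 and 0.553 for KRT14. The 10 markers of blood, endothelial and mesenchymal cells summed to 81.1 to 87.6 CPM in the PFHxA libraries, 76.0 to 84.2 in the PFBA libraries and 74.7 to 85.2 in the control libraries, nearly all of it from ACTA2. Without ACTA2 the sums were 3.5 to 6.13 CPM with PFHxA, 4.83 to 6.31 CPM with PFBA and 4.46 to 5.12 CPM in control. The 9 epithelial markers summed to 2794.2 to 3001.3 CPM with PFHxA, 2547.4 to 2665.8 CPM with PFBA and 2751.6 to 2790.2 CPM in control, and EPCAM was the only one called with PFHxA, at 38.3 ± 0.739 CPM against 43.3 ± 1.98 CPM in control (SD, n = 4 each, log2 fold change -0.18, adjusted p = 0.0384, edgeR). KRT5 was called between the acids, at 2046.3 ± 79.8 CPM with PFHxA and 1811.8 ± 44.1 CPM with PFBA (log2 fold change 0.18, adjusted p = 0.0117, edgeR). Both calls were lost in a fit with the trends over GC content and length removed (adjusted p = 0.216 for EPCAM and 0.287 for KRT5), and their part in the results on the proteasome was not tested.

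In PFHxA libraries 6 of the 7 outer-ring genes with reads were lower than in control. PSMA1 to PSMA6 fell against control, to 0.637 (PSMA2) to 0.857 (PSMA1) of the control level, while PSMA7, the remaining outer-ring gene of these cells, and the 7 inner-ring genes did not pass the test. Of the cap's 6 ATPase genes 3 (PSMC1, PSMC2 and PSMC6) fell too, and among the other cap subunits 2 fell (PSMD12 and PSMD14) and 2 rose (PSMD2 and PSMD3). Of the 46 genes, 12 fell and 2 rose at an adjusted p under 0.05 (edgeR quasi-likelihood test, adjusted over all 16554 tested genes), which is 30.4% against 14.9% of all tested genes (8.82% lower and 6.08% higher). In 15 of the 46 all 4 PFHxA libraries lay below all 4 control libraries, against 11.2% of all tested genes, and in 1 they all lay above, against 9.49%. The median log2 fold change of the 46 was -0.10, against -0.00 over all tested genes. With the trends over GC content and length removed, 3 of the 46 stayed called (PSMA2, PSMA4 and PSMC1), against 2.62% of all tested genes. The longest transcripts of the outer ring had a median GC content of 40.7% and those of the inner ring 49.9%. The median log2 fold changes of the 2 rings were -0.32 and -0.10, and with the trends removed -0.14 and -0.04. The part of GC content and length in the difference between the rings was not tested. RNA from a mixed sample cannot tell fewer cells expressing a gene from less of its RNA per cell.

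**Figure D1:**
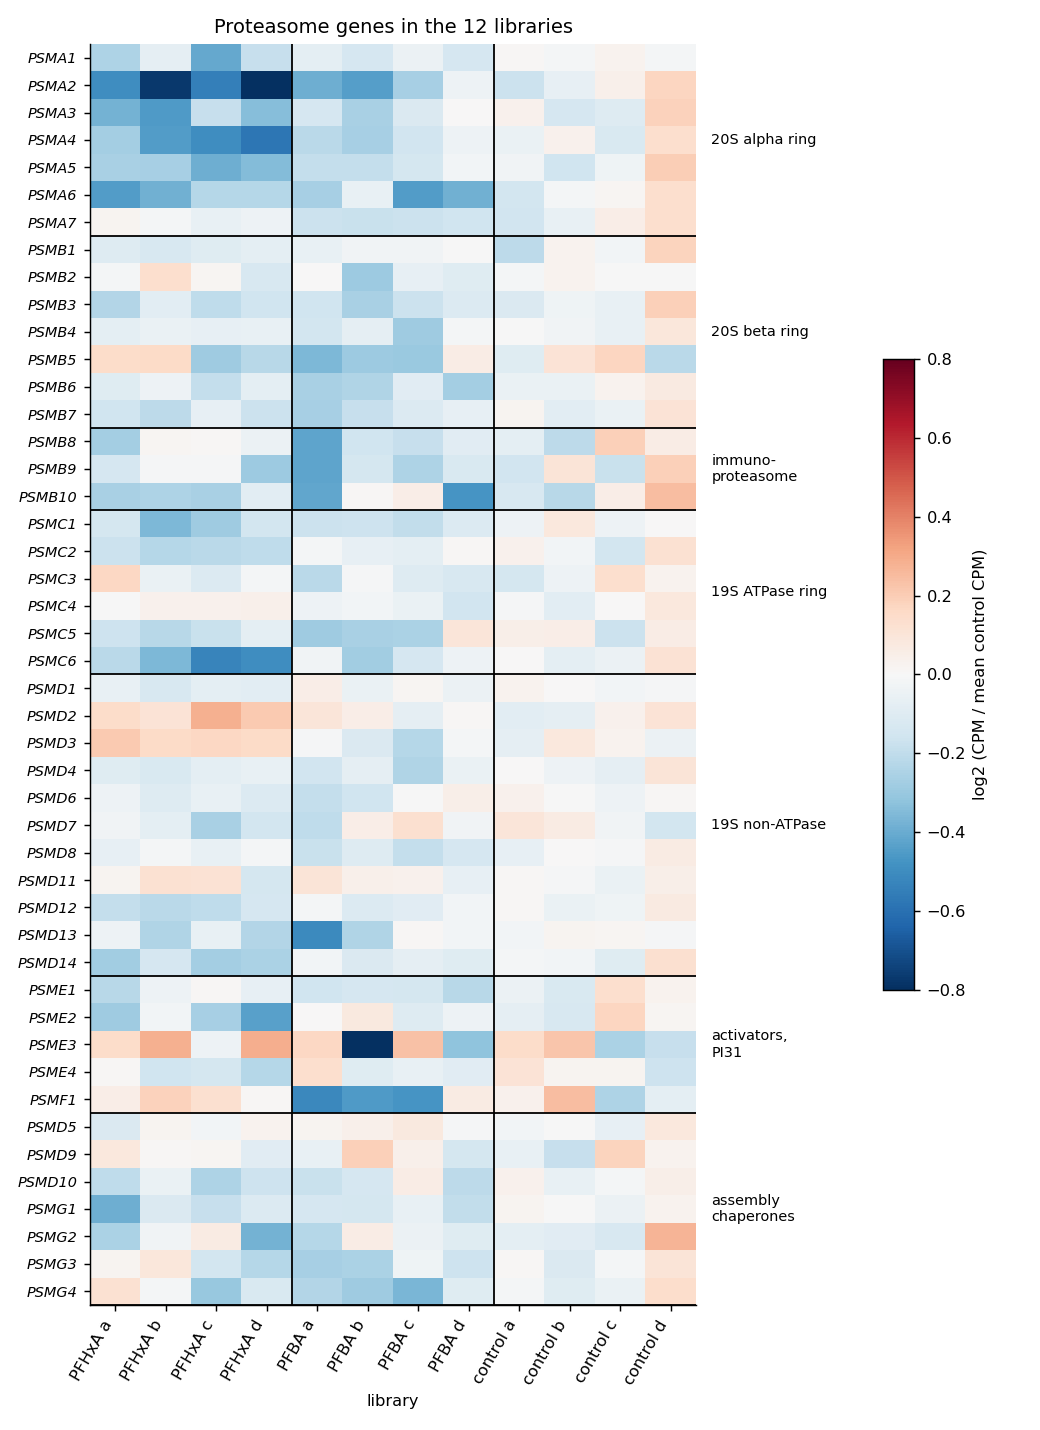
Each cell is the log2 ratio of a gene's CPM in 1 library to its mean in the 4 control libraries, for the 46 tested genes (down, by class) in the 12 libraries (across, PFHxA, PFBA, control). The darkest blue cells of the outer ring are those of PSMA2 and PSMA4 with PFHxA, and control d is the reddest control library.

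The map of all libraries shows the outer ring, together with PSMC6, as the bluest block under PFHxA. It also shows that control d was the highest control, with a median deviation of 0.07 over the 46 genes on the log2 scale against -0.02 in each of the other 3 controls, and of 0.16 over PSMA1 to PSMA6. PSMA2 (ENSG00000106588, chr7:42916857-42932223, minus strand) is an outer-ring subunit. It had 99.0, 82.0, 95.6 and 80.0 CPM in the PFHxA libraries, 106.8, 103.0, 116.6 and 136.2 CPM in the PFBA libraries and 124.0, 133.8, 144.2 and 157.5 CPM in the control libraries. All PFHxA libraries were below all others, and PFBA overlapped control. The log2 fold change of PFHxA over control was -0.65 ± 0.103 (SE, adjusted p = 0.00238, edgeR), the largest fall of the 46.

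PSMA4 (ENSG00000041357, chr15:78540405-78552419, plus strand) is the outer-ring subunit whose yeast counterpart carries the central tail of the gate. PSMA4 read 91.0, 80.7, 77.9 and 73.7 CPM with PFHxA, 94.9, 91.4, 99.0 and 107.1 CPM with PFBA and 106.3, 112.7, 101.1 and 120.6 CPM in control. PFHxA again lay below both other groups without overlap, by a narrow gap to PFBA. Its log2 fold change was -0.45 ± 0.0731 (SE, adjusted p = 0.00234, edgeR).

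PSMC6 (ENSG00000100519, chr14:52707172-52728587, plus strand) is an ATPase of the cap's unfolding ring. Its levels were 50.7, 45.9, 40.9 and 41.9 CPM with PFHxA, 57.9, 48.6, 53.7 and 57.3 CPM with PFBA and 59.1, 55.8, 57.1 and 64.0 CPM in control. Every PFHxA library was below every control library, and the highest PFHxA library was above the lowest PFBA library. The change against control was -0.40 ± 0.0763 (SE, log2, adjusted p = 0.00499, edgeR).

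PSMD3 (ENSG00000108344, chr17:39980797-39997960, plus strand), a structural subunit of the cap's lid, went the other way. It had 169.4, 163.1, 164.2 and 163.1 CPM with PFHxA, 145.5, 135.3, 125.2 and 145.1 CPM with PFBA and 139.4, 155.4, 149.8 and 142.3 CPM in control. The 4 PFHxA libraries were above all 8 others and close to each other. PSMD3 rose by 0.17 ± 0.0518 on the log2 scale against control (SE, adjusted p = 0.0437, edgeR), a call that was lost when any of 8 single libraries was left out, with adjusted p up to 0.114.

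These 4 are the genes called both against control and between the acids, and their promoter windows are printed here because promoter motifs are a feature on which such genes can be compared. Each window is the RefSeq sequence on GRCh38.p14 from 250 bases before to 50 after a transcript start (the start nearest to the table's gene start), 5' to 3' along the gene. Capitals mark matches on either strand to TGACNNNGC, the core of the antioxidant response element, GCGCANGC, a core of the nuclear respiratory factor 1 site, CGGAAG, a core of ETS factor sites, or CCAAT. None of the 4 motifs contains another.
PSMA2 (chr7:42932125-42932424, minus strand): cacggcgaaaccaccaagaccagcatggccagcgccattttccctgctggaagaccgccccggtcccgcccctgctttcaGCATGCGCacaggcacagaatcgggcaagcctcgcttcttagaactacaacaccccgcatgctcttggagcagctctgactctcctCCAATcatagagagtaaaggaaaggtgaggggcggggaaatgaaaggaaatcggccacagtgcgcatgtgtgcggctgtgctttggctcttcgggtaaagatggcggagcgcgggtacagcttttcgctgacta
PSMA4 (chr15:78540155-78540454, plus strand): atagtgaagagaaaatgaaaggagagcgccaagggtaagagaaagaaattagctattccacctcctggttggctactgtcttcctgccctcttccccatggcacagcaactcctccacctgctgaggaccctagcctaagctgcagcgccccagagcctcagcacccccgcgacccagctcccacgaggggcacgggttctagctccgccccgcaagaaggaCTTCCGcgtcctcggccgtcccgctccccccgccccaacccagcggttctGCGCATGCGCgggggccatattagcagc
PSMC6 (chr14:52706950-52707249, plus strand): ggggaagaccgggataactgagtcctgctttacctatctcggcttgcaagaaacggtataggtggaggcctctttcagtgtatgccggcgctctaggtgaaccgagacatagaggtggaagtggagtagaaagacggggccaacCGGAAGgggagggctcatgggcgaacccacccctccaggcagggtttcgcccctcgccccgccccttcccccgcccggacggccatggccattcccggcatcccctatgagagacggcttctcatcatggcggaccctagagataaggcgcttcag
PSMD3 (chr17:39980557-39980856, plus strand): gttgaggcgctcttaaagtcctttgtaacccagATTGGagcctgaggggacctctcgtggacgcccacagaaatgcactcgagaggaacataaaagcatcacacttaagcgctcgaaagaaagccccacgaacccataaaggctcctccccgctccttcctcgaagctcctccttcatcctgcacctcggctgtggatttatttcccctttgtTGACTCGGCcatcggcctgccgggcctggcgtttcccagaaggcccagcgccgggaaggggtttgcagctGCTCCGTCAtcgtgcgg
The windows of the 3 genes that fell hold a respiratory factor core (PSMA2 and, with 2 overlapping matches on the opposite strands, PSMA4) or an ETS core (PSMA4 and PSMC6), and PSMA2 also a CCAAT box. PSMD3 holds 2 antioxidant response element cores and a CCAAT box on the minus strand. Of the 48 genes, 42 matched a window, and PSMA7, PSMB1, PSMB6, PSMB7, PSMD4 and PSMG3 did not. Each of the 42 counts with 1 window, while a gene can have several among all windows. TGACNNNGC was in 13 of the 42 (31.0%), against 13.3% of all 35116 windows, and in 2 of the 12 genes that fell and 11 of the other 30. GCGCANGC was in 9 of 42 (21.4%) against 12%, with 4 of the 12 that fell and 5 of the other 30. CGGAAG was in 22 of 42 (52.4%) against 19.5%, with 9 of the 12 that fell and 13 of the other 30. CCAAT was in 19 of 42 (45.2%) against 34.6%, with 6 of the 12 and 13 of the other 30. A match is a string of letters and not a bound site, and these shares were not tested.

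The other outer-ring genes moved less than PSMA2 and PSMA4. PSMA5 had 93.9, 93.5, 85.9 and 88.6 CPM with PFHxA, 98.5, 98.5, 102.0 and 111.0 CPM with PFBA and 110.5, 101.0, 109.9 and 128.9 CPM in control. PSMA3 had 63.1, 60, 72.1 and 64.7 CPM with PFHxA, 74.6, 68.6, 75.7 and 82.3 CPM with PFBA and 83.8, 74.8, 76.3 and 93.0 CPM in control. All PFHxA libraries were below all controls in both genes, and below all PFBA libraries in PSMA5 alone. PSMA5 changed by -0.32 ± 0.0681 (SE, log2, adjusted p = 0.00853, edgeR) and PSMA3 by -0.33 ± 0.0785 (adjusted p = 0.0131, edgeR). The PSMA3 call was lost without PFHxA b (adjusted p = 0.0504).

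PSMA6 had 73.2, 76.4, 85.3 and 85.1 CPM with PFHxA, 83.1, 95.5, 73.2 and 76.4 CPM with PFBA and 90.2, 98.8, 100.7 and 109.2 CPM in control. Here both acids were low, with all PFHxA libraries below all controls and 3 of the 4 PFBA libraries below the lowest control. The change with PFHxA was -0.32 ± 0.0846 (SE, log2, adjusted p = 0.0239, edgeR), and with PFBA -0.28 ± 0.0844 (adjusted p = 0.336). The PFHxA call was lost without PFHxA a, PFHxA b, control c or control d (adjusted p up to 0.0806). PSMA6 shares 919 bases of exon with AL121594.1 on the same strand and has a copy, PSMA6P1, at 7.63 ± 1.38 CPM with PFHxA, 8.79 ± 0.184 CPM with PFBA and 8.87 ± 1.06 CPM in control (SD, n = 4 each). Summed with PSMA6P1, an alternative added after the data were seen, the PFHxA change was -0.31 (adjusted p = 0.0212, edgeR).

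PSMA1 had 80.8, 91.3, 72.4 and 84.6 CPM with PFHxA, 91.0, 87.6, 92.9 and 87.5 CPM with PFBA and 96.5, 94.9, 97.8 and 94.9 CPM in control. Libraries of both acids were all below the control libraries, and the acids overlapped. The change was -0.22 ± 0.0586 with PFHxA (SE, log2, adjusted p = 0.0227, edgeR) and -0.10 ± 0.0584 with PFBA (adjusted p = 0.609), and the PFHxA call was lost without PFHxA c, control a or control c (adjusted p up to 0.0639). PSMA7, the highest of all proteasome genes per kilobase, had 236.1, 230.4, 223.3 and 226.7 CPM with PFHxA, 206.8, 205.8, 206.6 and 208.4 CPM with PFBA and 209.6, 223.8, 242.1 and 256.0 CPM in control. PFHxA lay inside the control range and above all PFBA libraries, and its change against control was -0.02 ± 0.0525 (SE, log2, adjusted p = 0.83, edgeR), with a 95% interval of -0.14 to 0.09.

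**Figure D2:**
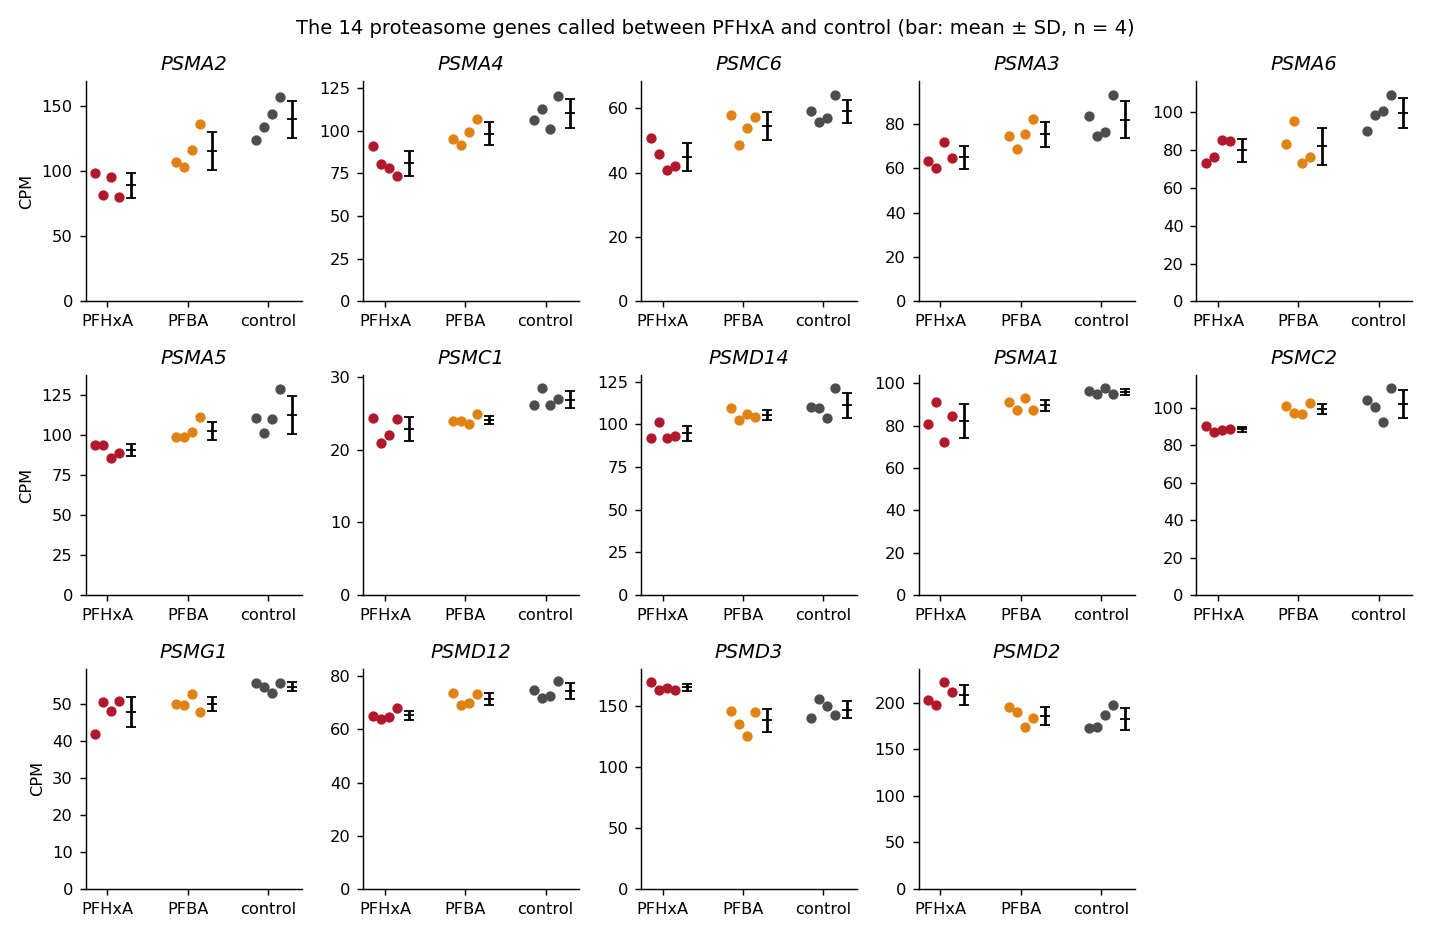
CPM of the 14 genes called between PFHxA and control, in order of their log2 fold change, with 1 point per library and the mean ± SD (n = 4) beside each group. PSMA2 fell most, to 80.0 to 99.0 CPM with PFHxA against 124.0 to 157.5 CPM in control, and PSMD2 and PSMD3 are the panels where PFHxA is high.

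The plot of the 14 called genes shows the PFBA mean between the PFHxA and the control mean for all 12 genes that fell. These genes were picked because PFHxA was low against the same control libraries, which favours such an order, and the order was not tested. To set the outer-ring genes that fell beside the inner ring, PSMA1 to PSMA6 were summed without PSMA7. This grouping was made after their values were seen and is therefore given without a test. The summed level was 501.0, 484.0, 489.2 and 476.7 CPM with PFHxA, 549.0, 544.6, 559.4 and 600.5 CPM with PFBA and 611.2, 616.1, 630.1 and 704.0 CPM in control, so that the 3 groups did not overlap. The sum of the inner-ring genes PSMB1 to PSMB7 was 838.6 ± 23.0 CPM with PFHxA, 813.9 ± 31.4 CPM with PFBA and 887.1 ± 36.6 CPM in control (SD, n = 4 each), where PFHxA and control overlapped. The ratio of the 2 sums was 0.582 ± 0.017 with PFHxA, 0.692 ± 0.00683 with PFBA and 0.721 ± 0.0254 in control. It sets only the called outer-ring genes against the whole inner ring. With PSMA7 included, the outer ring summed to 716.8 ± 14.3 CPM with PFHxA, 770.3 ± 26.5 CPM with PFBA and 873.2 ± 61.7 CPM in control. Within the outer ring, PSMA2 over PSMA7 was 0.389 ± 0.0401 with PFHxA, 0.559 ± 0.0688 with PFBA and 0.6 ± 0.0104 in control. This pair sets the gene of the largest fall over the outer-ring gene that was not called. It was also chosen after the values were seen and was not tested. All 46 genes together summed to 4144.7 ± 49.0 CPM with PFHxA, 4102.3 ± 87.5 CPM with PFBA and 4433.9 ± 135.0 CPM in control, lower than in control in every library of both acids.

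**Figure D3:**
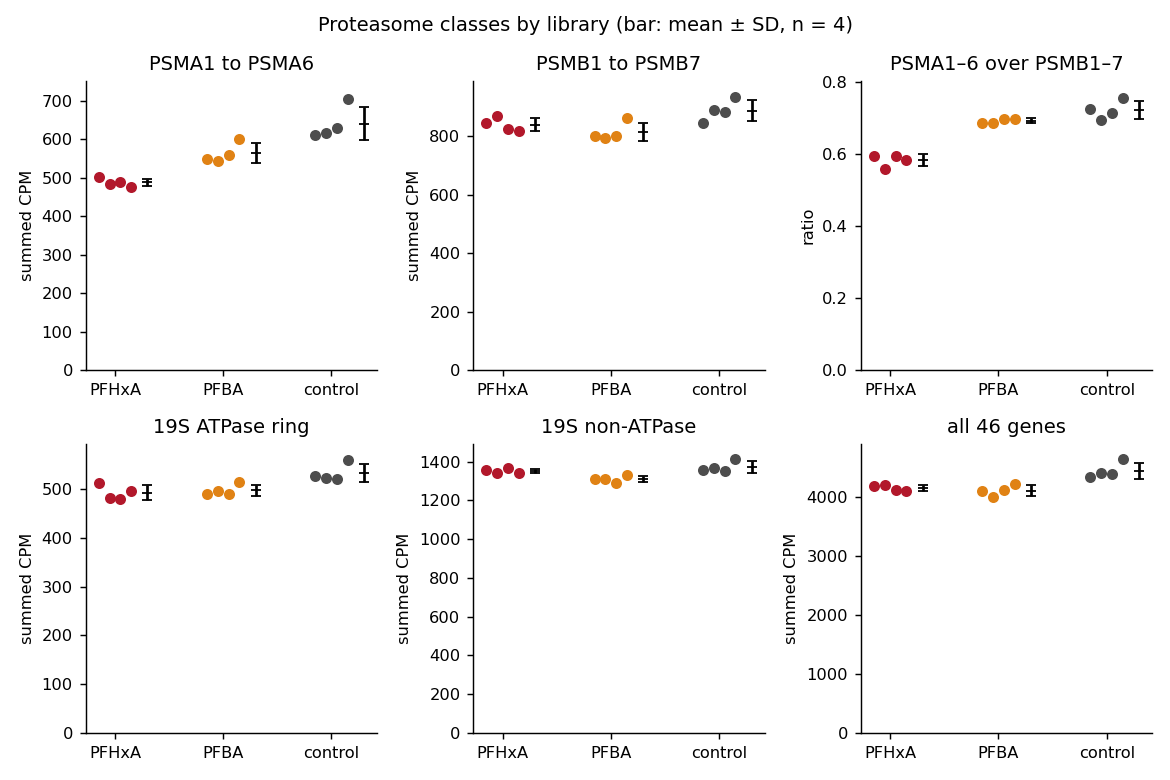
Summed CPM of PSMA1 to PSMA6, PSMB1 to PSMB7, the 19S ATPases, the other 19S subunits and all 46 tested genes, and the ratio of the first sum to the second, with 1 point per library and the mean ± SD (n = 4) beside each group; axes start at 0. The ratio is 0.557 to 0.593 in the PFHxA libraries, 0.685 to 0.698 in the PFBA libraries and 0.693 to 0.754 in the control libraries.

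The inner ring carries the active sites: PSMB5 cleaves after hydrophobic, PSMB6 after acidic and PSMB7 after basic residues. By edgeR 0 of its 7 genes were called with PFHxA, against 14.9% of all tested genes. An unadjusted p under 0.05 was reached by 2 of the 7 (PSMB3 and PSMB7), against 4719 of all 16554 tested genes. The log2 fold changes of the 7 ran from -0.17 (PSMB3, adjusted p = 0.0965, edgeR) to 0.00 (PSMB2, adjusted p = 0.978). PSMB5 had 121.1, 121.9, 90.1 and 93.9 CPM with PFHxA, 85.5, 89.4, 89.0 and 113.9 CPM with PFBA and 102.4, 118.3, 123.1 and 94.2 CPM in control. PSMB6 had 44.1, 45.9, 41.3 and 44.7 CPM with PFHxA, 39.4, 40, 44.3 and 39.1 CPM with PFBA and 45.5, 45.4, 48.1 and 49.7 CPM in control. PSMB7 had 100.8, 97.5, 107.5 and 100 CPM with PFHxA, 93.6, 99.2, 104.1 and 107.7 CPM with PFBA and 114.0, 106.3, 108.5 and 121.1 CPM in control. PFHxA overlapped control in all 3, with changes of -0.04 ± 0.131, -0.10 ± 0.0554 and -0.15 ± 0.0549 for PSMB5, PSMB6 and PSMB7 (SE, log2, adjusted p = 0.896, 0.263 and 0.0893, edgeR). The PSMB6 libraries of PFBA were all below control, at -0.21 ± 0.0554 (adjusted p = 0.304). The structural genes PSMB1, PSMB2 and PSMB4 changed by -0.10, 0.00 and -0.06 with PFHxA, none of them called.

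PSMB8, PSMB9 and PSMB10, the interferon-inducible replacements of PSMB5, PSMB6 and PSMB7, were low in all groups. PSMB8 had 7.38, 9.03, 8.99 and 8.65 CPM with PFHxA, 6.65, 7.98, 7.85 and 8.38 CPM with PFBA and 8.44, 7.71, 10.2 and 9.28 CPM in control. PSMB9 had 5.68, 6.18, 6.2 and 5.09 CPM with PFHxA, 4.65, 5.66, 5.25 and 5.72 CPM with PFBA and 5.6, 6.69, 5.5 and 7.12 CPM in control. PSMB10 had 10.6, 10.7, 10.6 and 12 CPM with PFHxA, 9.52, 12.8, 13.2 and 9.17 CPM with PFBA and 11.6, 10.9, 13.2 and 15.1 CPM in control. The groups overlapped in all 3 genes. By edgeR 0 had an unadjusted p under 0.05 with either acid, against 4719 of all 16554 tested genes with PFHxA and 1632 with PFBA. The changes of PSMB8, PSMB9 and PSMB10 with PFHxA were -0.07, -0.10 and -0.21, with 95% intervals of -0.30 to 0.17, -0.35 to 0.15 and -0.50 to 0.08. Per kilobase of principal transcript, PSMB8 stood at 9.41% ± 2.02 of PSMB5 with PFHxA, 9.47% ± 0.892 with PFBA and 9.48% ± 1.57 in control (SD, n = 4 each). PSMB9 stood at 14.4% ± 1.64 of PSMB6 with PFHxA, 14.3% ± 1.63 with PFBA and 14.4% ± 1.72 in control. PSMB10 stood at 8.71% ± 0.706 of PSMB7 with PFHxA, 8.91% ± 1.7 with PFBA and 9.06% ± 0.994 in control. These shares differed between groups by less than the spread between libraries, and their size depends on the length used. Per kilobase of all merged exons PSMB8 stood at 4.81% of PSMB5 with PFHxA, 4.84% with PFBA and 4.85% in control, and PSMB9 at 6.22% of PSMB6 with PFHxA, 6.18% with PFBA and 6.22% in control. PSMB8 and PSMB9 overlap on opposite strands by 139 bases of exon, and a setting for strand in the counting is not stated.

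In the ring of ATPases, PSMC2 and PSMC1 fell beside PSMC6. PSMC2 had 90.5, 87.1, 88.0 and 88.7 CPM with PFHxA, 100.8, 97.5, 96.7 and 102.9 CPM with PFBA and 104.5, 100.7, 92.4 and 110.9 CPM in control, so that PFHxA lay below both other groups, which overlapped. It changed by -0.21 ± 0.0507 (SE, log2, adjusted p = 0.0168, edgeR), a call lost without PFHxA b or PFHxA c (adjusted p up to 0.0586). PSMC1 had 24.4, 21.0, 22.1 and 24.3 CPM with PFHxA, 23.9, 24.0, 23.5 and 24.9 CPM with PFBA and 26.2, 28.5, 26.1 and 27.0 CPM in control. Both acids were below control in every library. The PSMC1 change with PFHxA was -0.23 ± 0.0615 (adjusted p = 0.0235, edgeR), lost without PFHxA b, PFHxA c or control b (adjusted p up to 0.0812), and with PFBA -0.16 ± 0.0613 (adjusted p = 0.418).

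Reads of PSMC1 are uncertain in their origin. Its processed copy PSMC1P1 on chromosome 3 held 85.5 ± 0.815 CPM with PFHxA, 93.7 ± 2.95 CPM with PFBA and 102.4 ± 3.48 CPM in control (SD, n = 4 each), a mean of 1829.7 counts per library against 480.1 for PSMC1. PSMC1P1 fell with PFHxA by 0.26 on the log2 scale (adjusted p = 0.00169, edgeR), and the summed reads of both, an alternative added after the data were seen, changed by -0.25 (adjusted p = 0.00169). In addition, 4671 of the 6161 exon bases of PSMC1 lie opposite exons of NRDE2, which had 28.8 ± 2.01 CPM with PFHxA, 29.3 ± 1.42 CPM with PFBA and 27.6 ± 0.734 CPM in control. The remaining ATPases, PSMC3, PSMC4 and PSMC5, changed by 0.00, 0.03 and -0.16 with PFHxA, with none called.

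The other cap subunits split. PSMD14, the enzyme that cuts ubiquitin chains from the captured protein, had 91.8, 101.5, 92.2 and 93.2 CPM with PFHxA, 109.6, 102.8, 105.8 and 104.2 CPM with PFBA and 110.2, 109.4, 103.9 and 121.3 CPM in control. PSMD12, a structural subunit of the lid, had 65.1, 64.1, 64.6 and 67.9 CPM with PFHxA, 73.6, 69.1, 69.8 and 73.2 CPM with PFBA and 75, 71.8, 72.6 and 78.2 CPM in control. In both genes PFHxA lay below every other library. PSMD14 changed by -0.23 ± 0.0515 (SE, log2, adjusted p = 0.00995, edgeR) and PSMD12 by -0.18 ± 0.0423 (adjusted p = 0.0117), and both stayed called without any 1 library but not with the trends over GC content and length removed (adjusted p = 0.925 for PSMD14 and 0.991 for PSMD12). PSMD2, the scaffold on which ubiquitin shuttles dock, had 202.2, 197.4, 222.5 and 210.8 CPM with PFHxA, 195.4, 189.3, 173.4 and 183.4 CPM with PFBA and 172.3, 173.6, 187.1 and 197.4 CPM in control. PFHxA was above all PFBA libraries and touched the highest control. PSMD2 rose by 0.19 ± 0.0555 (adjusted p = 0.0367, edgeR), a call lost when any of 5 single libraries was left out (adjusted p up to 0.098). The 7 cap subunits not called, PSMD1, PSMD4, PSMD6, PSMD7, PSMD8, PSMD11 and PSMD13, changed by -0.14 (PSMD13) to 0.03 (PSMD11). Among them are PSMD1, the other large scaffold, at -0.09 ± 0.0359 (adjusted p = 0.121), and PSMD4, a ubiquitin receptor, at -0.09 ± 0.0486 (adjusted p = 0.265).

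By edgeR 0 of the 5 activators and inhibitors were called with PFHxA, against 14.9% of all tested genes. An unadjusted p under 0.05 was reached by 1 of the 5 (PSME2), against 4719 of all 16554 tested genes. PSME1 and PSME2 form the interferon-inducible cap of the core. PSME1 had 66.8, 75.6, 78.4 and 74.4 CPM with PFHxA, 69.7, 70.8, 70.6 and 66.8 CPM with PFBA and 75.4, 71.4, 85.3 and 79.3 CPM in control. PSME2 had 56.9, 68.3, 57.7 and 51.2 CPM with PFHxA, 69.4, 73.2, 64.4 and 67.3 CPM with PFBA and 65.8, 63.3, 78.2 and 70.1 CPM in control. PFHxA overlapped control in both, with 3 of its 4 PSME2 libraries below the lowest control. PSME2 changed by -0.24 ± 0.085 with PFHxA (SE, log2, adjusted p = 0.0719, edgeR) and passed the threshold only without PFHxA b, at -0.32 (adjusted p = 0.0236), while PSME1 stood at -0.08 ± 0.0603.

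PSME3, the nuclear activator, had the widest spread of the 46 (SE of its PFHxA change 0.316 on the log2 scale). It had 149.0, 163.7, 130.7 and 164.8 CPM with PFHxA, 150.8, 46.3, 158.7 and 107.8 CPM with PFBA and 149.4, 157.4, 113.1 and 118.7 CPM in control. PFBA b was far below every other library. PSME4, a large activator of the core, had 104.7, 93.4, 94.6 and 88.9 CPM with PFHxA, 114.1, 97.4, 100 and 97.7 CPM with PFBA and 112.4, 105.7, 105.5 and 92.9 CPM in control. PSMF1, known in the test tube as an inhibitor of the core, had 61.1, 66.9, 64.6 and 59.4 CPM with PFHxA, 41.3, 43.1, 42.6 and 61.8 CPM with PFBA and 60.4, 69.9, 49.7 and 56 CPM in control. In PSMF1, 3 of the 4 PFBA libraries were below all others and PFBA d was not. PFHxA exceeded PFBA in PSMF1 by 0.42 ± 0.133 (SE, log2, adjusted p = 0.0663, edgeR), which passed the threshold with DESeq2 (adjusted p = 0.0143), with limma-voom (0.0488) and without PFBA d (0.57, adjusted p = 0.00705). That was the only 1 of the 12 fits without 1 library to pass, and adjusted p was up to 0.161 in the others. With the trends over GC content and length removed PSMF1 was not called either (adjusted p = 0.2, edgeR).

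Of the 7 assembly chaperones, PSMG1, which helps to build the outer ring, was the only one called. It had 41.7, 50.3, 48.1 and 50.6 CPM with PFHxA, 49.8, 49.6, 52.5 and 47.7 CPM with PFBA and 55.5, 54.4, 52.8 and 55.6 CPM in control. Every library of either acid was below every control library. PSMG1 changed by -0.19 ± 0.0594 with PFHxA (SE, log2, adjusted p = 0.0432, edgeR) and by -0.13 ± 0.0592 with PFBA (adjusted p = 0.504), and the PFHxA call was lost when any of 10 single libraries was left out (adjusted p up to 0.0995). PSMG2, PSMG3 and PSMG4, the other chaperones of the core, and PSMD5, PSMD9 and PSMD10, chaperones of the cap's ATPase ring, changed by -0.17 (PSMD10, adjusted p = 0.0958) to 0.01 (PSMD9).

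The calls with PFHxA went with the GC content of the transcript, for the proteasome as for the rest of the genes. The longest transcripts of the 12 genes that fell had a median GC content of 38.8% (32.0% to 48.7%), the 2 that rose 52.7% and 54.3%, and the 32 not called 50.4%. Under 40% GC, 7 of 8 proteasome genes fell, against 31.8% of all tested genes in that range. From 40% to 50%, 5 of 20 fell, against 9.34%. From 50% upward, 0 of 18 fell and 2 rose, against 0.725% and 10.9% of all genes. These ranges use the longest transcript. By principal transcript PSMA3, PSMA6 and PSMD14, which fell, lie above 40% GC, at 40.7%, 44.5% and 45.3%. PSMA2 lies below it by that measure, at 39.9%. Across genes, which are not independent replicates, Spearman's rho of GC content with the PFHxA change was 0.524 over the 46 and 0.463 over 16452 tested genes, within the same libraries.

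Trends over GC content and length of the longest transcripts were then removed from each library. In that fit 3 of the 46 genes were called, all among the 14, against 2.62% of all tested genes. PSMA2 changed by -0.52 (adjusted p = 0.0203, edgeR), PSMA4 by -0.35 (adjusted p = 0.0196) and PSMC1 by -0.28 (adjusted p = 0.0307). The other 4 outer-ring genes that fell ran from -0.15 (PSMA1) to -0.03 (PSMA3) in that fit, PSMC6 stood at -0.19 (adjusted p = 0.121) and PSMC2, PSMD12 and PSMD14 at -0.00, 0.00 and 0.02. The median of the 46 was -0.06 in that fit.

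**Figure D4:**
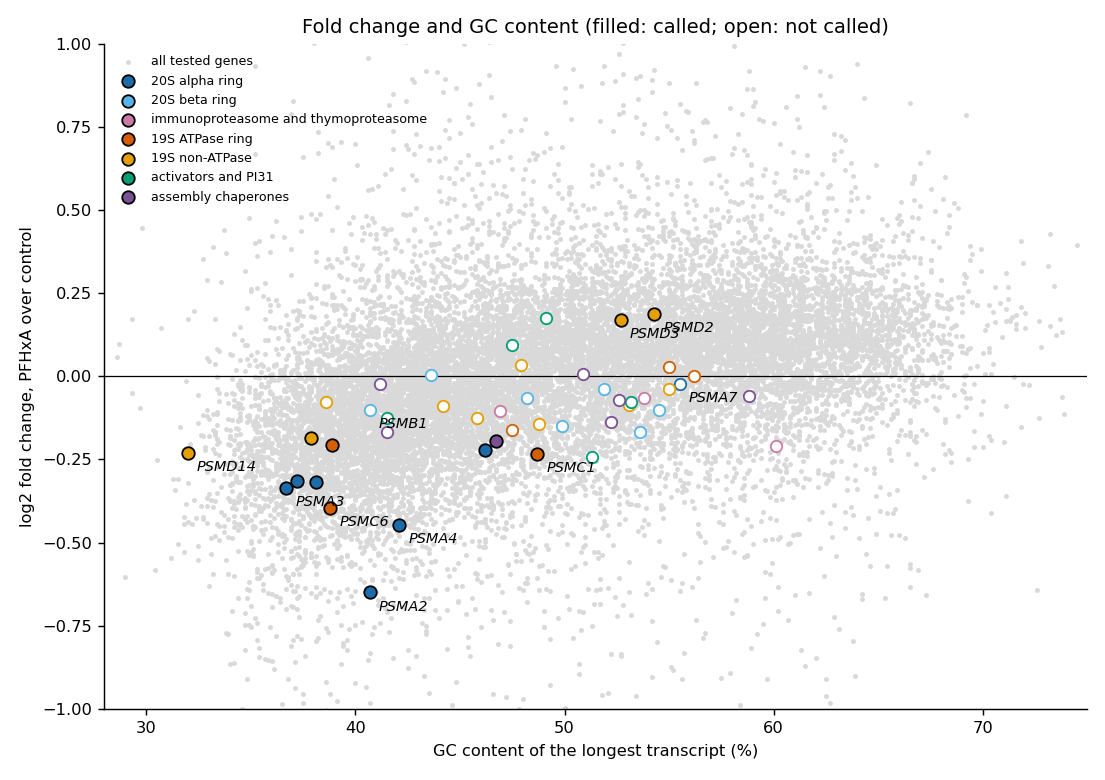
Log2 fold change of PFHxA over control against GC content of the longest transcript, for all tested genes (grey; the axis shows -1 to 1) and the 46 proteasome genes (coloured by class; filled, adjusted p under 0.05). The genes that fell lie at 32.0% to 48.7% GC, with PSMA2 at 40.7% and PSMA4 at 42.1% the lowest points among the 46.

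The plot of fold change against GC content places PSMA3, PSMA5 and PSMA6 close together at 36.7% to 38.1% GC. In its longest transcript PSMB1 has the same 40.7% as PSMA2 and changed by -0.10 ± 0.0613 (SE, log2), against -0.65 ± 0.103 for PSMA2. PSMD6, at 38.6% in its longest transcript, was the gene under 40% that was not called, with -0.08 ± 0.0518 (adjusted p = 0.365, edgeR) and all PFHxA libraries below all controls. By principal transcript the GC content is 39.9% for PSMA2, 48.3% for PSMB1 and 46.5% for PSMD6, so that these matches hold for the longest transcripts alone.

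PFBA was set against the same 4 control libraries, so that the 2 comparisons with control are not independent. With PFBA 0 of the 46 proteasome genes were called by edgeR, against 0.00604% of all tested genes, and 0 by DESeq2, against 0.292%. By limma-voom 0 were called as well, and the share of all tested genes in that fit is not given. At an unadjusted p under 0.05 there were 15 of 46, against 9.86% of all tested genes, and 42 of 46 had a fitted change below 0, against 8422 of all 16554. The median log2 fold change was -0.13, against -0.00 over all tested genes, and it was -0.14 to -0.10 when any 1 library was left out. In 8 of the 46 all PFBA libraries lay below all control libraries, against 2.8% of all tested genes, and in 0 all above, against 3.17%. PSMB6 and PSMD8, a lid subunit at -0.15 ± 0.0376 (SE, log2, adjusted p = 0.304, edgeR), had the smallest p. The median half-width of the 95% interval of a gene's change was 0.135.

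The acids were compared directly at the same dose and time, as 1 pair of compounds. Between them 4 of the 46 genes were called, 3 lower and 1 higher with PFHxA, against 10.9% of all tested genes (7.07% lower and 3.84% higher). In this fit the share of the proteasome genes, 8.7%, was no higher than that of all genes. The difference was -0.38 ± 0.103 for PSMA2 (SE, log2, PFHxA over PFBA, adjusted p = 0.0362, edgeR), -0.28 ± 0.0731 for PSMA4 (adjusted p = 0.0264) and -0.28 ± 0.0763 for PSMC6 (adjusted p = 0.0328). PSMD3 was higher with PFHxA by 0.26 ± 0.0518 (adjusted p = 0.00736) and was the only one of the 4 that stayed called without any 1 library. The calls of PSMA2, PSMA4 and PSMC6 were all lost without PFHxA b, PFHxA c, PFHxA d, PFBA c or PFBA d. With the GC and length trend removed 0 of the 46 were called, against 0.882% of all tested genes, the closest being PSMD3 at 0.19 (adjusted p = 0.0912).

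For the rest the difference between the longer and the shorter acid did not pass the test, which does not show that they act alike. Its 95% interval was -0.38 to -0.04 for PSMA3, -0.33 to -0.03 for PSMA5, -0.22 to 0.15 for PSMA6 and -0.25 to 0.00 for PSMA1. PSMA7 leaned the other way, at 0.15 ± 0.0526 (SE, log2, 95% interval 0.03 to 0.26, adjusted p = 0.0893, edgeR). The median over the 46 was 0.00, against 0.01 over all tested genes, with a median half-width of the interval of 0.138.

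Per kilobase of principal transcript, the order of levels in control began with PSMA7 at 233.8 ± 20.5, PSMB1 at 209.8 ± 22.8 and PSMB4 at 190.3 ± 8.61 CPM per kilobase (SD, n = 4), whose ranges overlapped from each to the next. PSMD4 followed at 139.4 ± 7.51, clear of PSMB4. At the low end stood PSMB10 at 10.4 ± 1.55, PSMB9 at 7.96 ± 1.03 and PSMB8 at 7.93 ± 0.972, which overlapped, and below them PSMC1 at 6.06 ± 0.256, without the reads of PSMC1P1. Among the outer-ring genes PSMA6 (96.9 ± 7.56), PSMA2 (94.1 ± 9.66) and PSMA3 (84.5 ± 8.61) overlapped in turn, with PSMA5 at 30.2 ± 3.14 and PSMA4 at 25.0 ± 1.91. These levels depend on the transcript used for the length: per kilobase of all merged exons PSMA6 stood at 15.3 and PSMG4 at 1.66, against 96.9 and 20.6 by principal transcript. On that scale PSMG4, PSMB9 (2.03), PSMB8 (2.98) and PSMD9 (3.84) were all below PSMC1 (4.37).

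**Figure D5:**
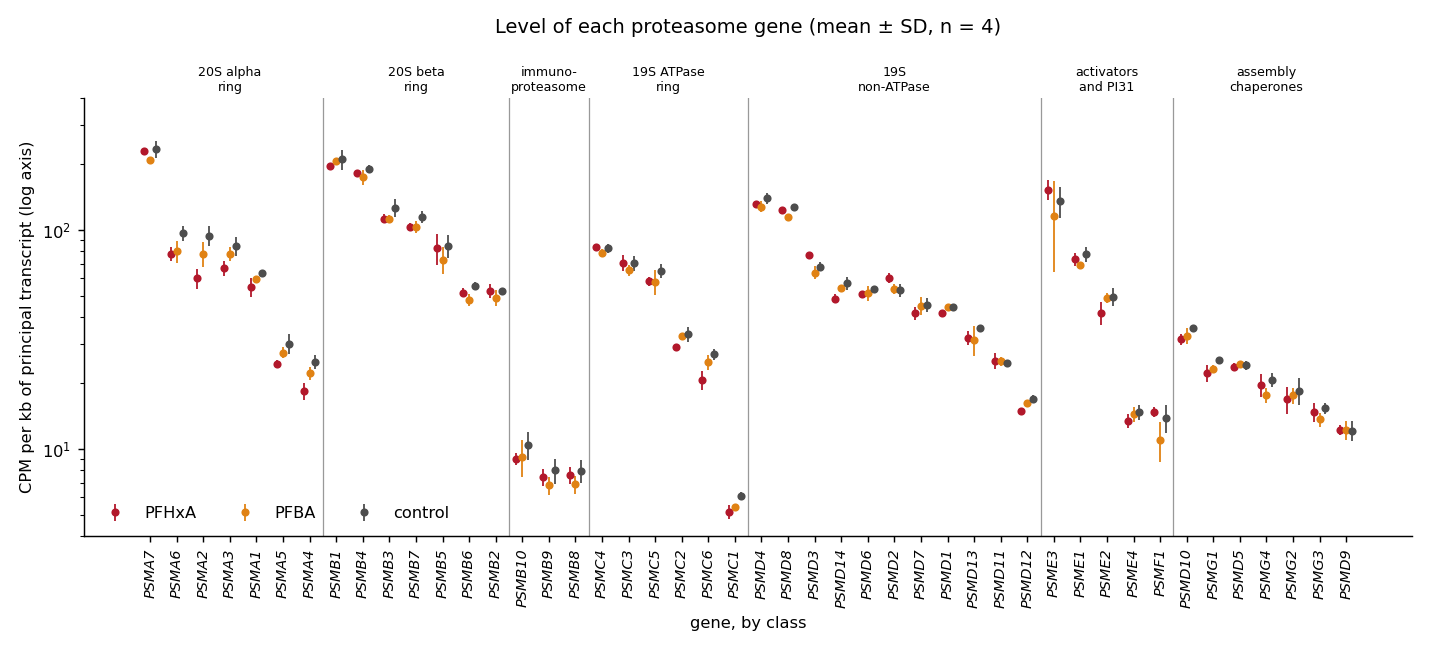
CPM per kilobase of principal transcript (log axis) of the 46 tested genes, mean ± SD (n = 4) for PFHxA, PFBA and control, by class and in order of the control level within it. In control the genes run from PSMA7 at 233.8 down to PSMC1 at 6.06, and the immunoproteasome genes lie between 7.93 and 10.4.

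The plot of levels per kilobase shows the low place of the immunoproteasome genes and the wide bar of PSME3 with PFBA. Among genes that work with the proteasome but carry other names, calls with PFHxA were made for 2 of 11 further subunits and partners, 2 of 5 regulators of proteasome genes, 3 of 17 genes of ubiquitin supply and shuttling and 1 of 15 genes of antigen processing, to be read against 14.9% of all tested genes. All of these 8 calls were lost when the trends over GC content and length were removed (adjusted p = 0.0546 for UBA6 to 0.979 for UCHL5, edgeR). That fit instead called ZFAND5 among the 11 partners (adjusted p = 0.0457, against 0.978 in the main fit). Among the 17 ubiquitin genes it called UBQLN2 (adjusted p = 0.0496, against 0.0973). Of all tested genes it called 2.62%. Both called subunits and partners fell. SEM1, a small lid subunit, had 65.4, 49.8, 60.2 and 57.3 CPM with PFHxA, 68.1, 62.3, 70.4 and 73.8 CPM with PFBA and 77.3, 74.8, 79.2 and 85.1 CPM in control. Libraries of both acids were below all controls, and SEM1 changed by -0.44 with PFHxA (adjusted p = 0.00304, edgeR). UCHL5, a deubiquitinase of the cap, changed by -0.21 (adjusted p = 0.0487), and POMP, which matures the core, by -0.23 (adjusted p = 0.35).

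Among the regulators, NGLY1, which removes glycans from the transcription factor NFE2L1, fell by 0.26 on the log2 scale (adjusted p = 0.0458, edgeR), and DDI2, the protease that cuts NFE2L1 into its active form, rose by 0.13 (adjusted p = 0.0454). NFE2L1 itself had 138.8 ± 25.8 CPM with PFHxA, 165.8 ± 60.5 CPM with PFBA and 136.7 ± 13.7 CPM in control (SD, n = 4 each) and was not called (0.02, adjusted p = 0.966). Of the genes of ubiquitin supply and shuttling 2 fell (8.82% of all tested genes were lower) and 1 rose (6.08% were higher). UBA6, an enzyme that activates ubiquitin, was at 67.6 ± 2.01 CPM with PFHxA, 81.3 ± 3.77 CPM with PFBA and 83.0 ± 1.28 CPM in control, and fell by 0.30 (adjusted p = 0.00161). UBA1, the main activating enzyme, was at 500.4 ± 11.7 CPM with PFHxA, 418.1 ± 16.8 CPM with PFBA and 439.2 ± 15.4 CPM in control, and rose by 0.19 (adjusted p = 0.00764). The shuttle UBQLN1 fell by 0.15 (adjusted p = 0.00876). Between the acids UBA6 and UBQLN1 were lower and UBA1 was higher with PFHxA, calls that were also lost with the trends over GC content and length removed. In that fit ERAP1, of the antigen processing genes, was called between the acids (adjusted p = 0.0432, edgeR, against 0.465 in the main fit). Of all tested genes 0.882% were called there. The called gene of antigen processing, HLA-C, rose, by 0.13 (adjusted p = 0.0354), and with PFBA 0 genes of these lists were called by edgeR, with 1 of 11, 2 of 5, 2 of 17 and 1 of 15 at an unadjusted p under 0.05, against 9.86% of all tested genes. The median changes of the 4 lists with PFHxA were -0.05, 0.02, 0.01 and 0.02, against -0.00 over all tested genes.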

How the data were processed

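Per the submitters' processing notes, the tools and builds used include HISAT2 2.0.4 and GRCh38 (hg38). The deposited table gives raw read counts per Ensembl gene, 1 column per library. The read counter, its annotation and its handling of strand are not stated in the labels or the table. The table holds 12 further columns of normalized values, which were not used. Column prefixes were read as PFHxA, PFBA and control. Libraries carry the letter of their column, since nothing links it to a replicate number.

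Counts were fitted in edgeR 4.0.16 (R 4.3.3): filterByExpr (minimum count 10, total 15), TMM scaling, 1 robust quasi-likelihood fit of all 12 libraries with group as the only term, two-sided F tests, Benjamini-Hochberg adjustment over 16554 genes, threshold 0.05, 95% intervals. The biological coefficient of variation was 0.127. The procedure was tested on simulated data. Alternatives changed the scaling (RLE, upper quartile), the filter (none, or a mean of at least 50 reads with 1 CPM reached by 4 libraries), the libraries fitted (the 8 compared, or leaving out each in turn) or the test (limma-voom with limma 3.58.1, DESeq2 1.42.0), or removed trends over GC content and log2 length per library (splines with 5 degrees of freedom). GC content, length and exon overlaps are from GENCODE 29 and promoters from RefSeq.

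The genes, lists and tests were chosen with earlier results of these data known. Library values are given for every gene called, for PSMB5 to PSMB10, PSME1 to PSME4 and PSMF1, and for the gene of smallest p in each class. Genes of other lists are named where called. POMP, NFE2L1 and other genes outside these rules were named after their values were seen. Some results on single genes of the other lists are not reported here.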

Additional observations from a re-analysis of the deposited data

Results flagged for a closer look

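In each of the 3 groups of 25 proteasome genes, those given by library other than PSMA7, a library was looked for whose gap to the nearest of the other 3 exceeds, as a share of the group's range, Dixon's 95% limit for 4 values. Of 75 such groups 5 had one, where chance gives about 1 in 20, or 3.75. PSMD14 was 101.5 CPM in PFHxA b, with the next PFHxA library at 93.2. PSMB10 was 12 CPM in PFHxA d, next to 10.7. PSMB5 was 113.9 CPM and PSMF1 61.8 CPM in PFBA d, with the next PFBA libraries at 89.4 and 43.1. PSME4 was 114.1 CPM in PFBA a, with the next at 100. All 5 are the highest of their group. The value of 46.3 CPM for PSME3 in PFBA b did not reach this limit.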

How the results depend on the processing

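Of the 18 calls named above (14 between PFHxA and control, 4 between the acids), all kept their direction in every alternative except the removal of the GC and length trend, where 16 did: PSMD12 went to 0.00155 and PSMD14 to 0.02 on the log2 scale. That fit kept 3 of the 14 calls against control and 0 of the 4 between the acids. The 14 became 10 to 14 in the other alternatives (10 in the fit of 8 libraries) and 8 to 14 when 1 library was left out, with 8 without PFHxA c and 9 without PFHxA b or control c. The 4 became 7 with the stricter filter, 8 in the fit of 8 libraries and 9 with DESeq2, and 1 to 10 when 1 library was left out (10 without control d, 1 without PFHxA c, PFHxA d or PFBA c). For these counts the share of all tested genes in the same fit is not given, so they cannot be set against it. PFBA against control gave 0 in every alternative and 0 to 0 when 1 library was left out. The median change of the 46 genes stayed below 0 in both comparisons with control. No paired analysis was possible because the columns carry letters that are not tied to the replicate numbers of the labels. PSMB8, PSMB9 and PSMB10 had a depth of 4.65 to 15.1 CPM, where the standard errors of their PFHxA changes were 0.109, 0.116 and 0.134 on the log2 scale, against 0.131 for PSMB5 at 85.5 to 123.1 CPM.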
